A study of Mus musculus with 8 samples.

Results

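The genes described here build and regulate the contacts between endothelial cells. They are Cdh5, Ptprb, Esam, Pecam1, Cldn5, Jam2, Jam3, Tjp1, Ctnnd1 and Jup, 10 of the 34536 gene symbols measured. They were chosen by symbol from a list of junction genes, with earlier results of these data known. All 10 had enough counts to be tested, as had 13817 symbols in all. RNA was sequenced from mouse cells sorted out of embryoid bodies, which are aggregates of differentiating embryonic stem cells. There were 4 libraries of cells labelled endocardial (A, C, E and G) and 4 of cells labelled endothelial (B, D, F and H). Endocardial cells are the endothelium on the inside of the heart, and the title of the study names its signals in early heart formation. The stem cell line, genotype, culture day, treatment and sort markers of either group are not stated in the labels used here. No label states that each library had its own culture and sort, and p-values therefore measure the spread between these libraries, which may be technical.

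Endothelial cells are held together by adherens and tight junctions that intermingle along their borders. VE-cadherin, the product of Cdh5, spans the adherens junction, and its tail binds p120-catenin (Ctnnd1), plakoglobin (Jup) and beta-catenin (Ctnnb1). VE-PTP, the receptor phosphatase made from Ptprb, acts on VE-cadherin and on the Tie2 receptor. The tight junction strand protein claudin-5 (Cldn5) and the immunoglobulin-domain proteins ESAM, JAM-B (Jam2) and JAM-C (Jam3) lie at the same borders, and ZO-1 (Tjp1) is a scaffold beneath them. PECAM-1, or CD31, is a further immunoglobulin-domain protein of endothelial borders that also occurs on blood cells and on mouse embryonic stem cells.

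Of the 7 genes for surface proteins 5 were higher in the endocardial libraries, and the genes for their cytoplasmic partners were not called. Cdh5 was 8.20-fold, Ptprb 9.24-fold, Esam 5.39-fold, Cldn5 3.41-fold and Pecam1 1.77-fold higher. Ctnnd1, Jup and Tjp1, which epithelial and other cells use as well, differed by 1.24-fold or less and were not called, and neither were Jam2 and Jam3. A gene was called where its p from edgeR's quasi-likelihood test, adjusted over all tested genes after Benjamini and Hochberg, was below 0.05, and 5 of the 10 were called, all 5 higher. Of all tested genes 2.58% were called, 1.42% as higher and 1.16% as lower. The members had a median log2 fold change of 0.56, against 0.015 over all tested genes.

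**Figure D1:**
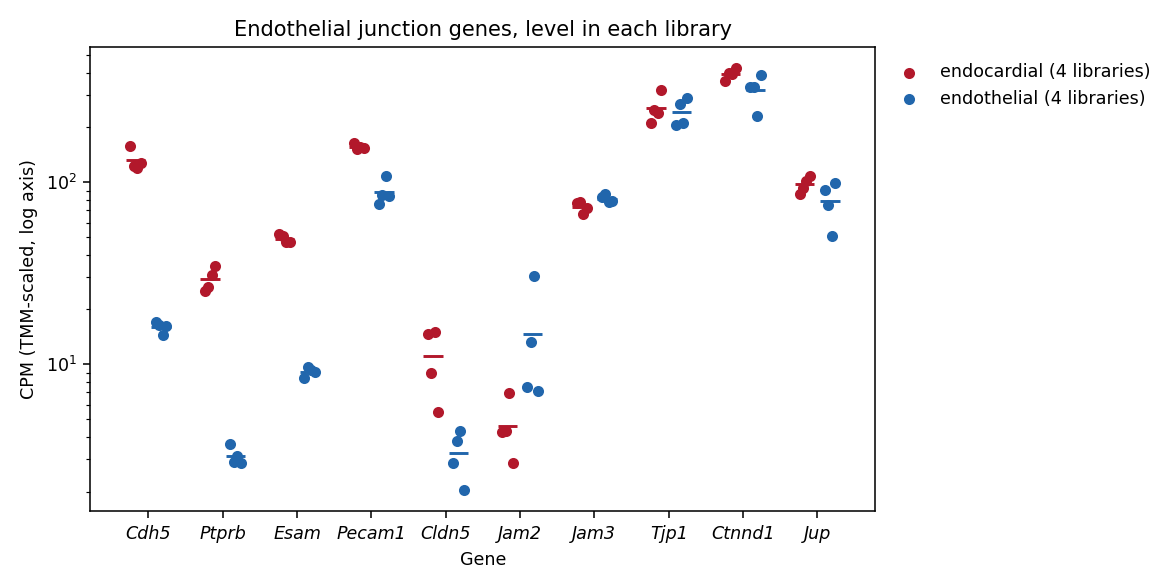
Level of each junction gene in each library, in counts per 1000000 (CPM) on a log axis, with endocardial libraries in red on the left of each pair and endothelial libraries in blue on the right; the bars are means of 4 libraries. For Cdh5 the endocardial libraries lie between 119 and 157 CPM and the endothelial between 14.5 and 17.1 CPM, while for Tjp1, Ctnnd1 and Jup the groups overlap.

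Totals per library ran from 6677667 to 11369363 estimated counts, and 3 counts, the limit that a count of 0 allows, correspond to 0.267 to 0.438 CPM (counting error only). Levels are given as CPM, counts per 1000000 of the scaled library total. Of 18 tested endothelial markers outside the 10 genes 14 were called higher in the endocardial libraries, their median log2 fold change was 1.92, and their summed level was 1497 to 1885 CPM in endocardial and 395 to 872 CPM in endothelial libraries. Of 7 tested endocardial markers 3 were called higher, and their sum was 412 to 450.4 CPM in endocardial and 129.7 to 263 CPM in endothelial libraries. Markers of other cells were present as well, and no listed marker was at 0 in every library. The 10 pluripotency genes summed to 21.4 to 133 CPM in endocardial and 136 to 1013 CPM in endothelial libraries, with 2 called lower and F the highest. All 10 were at an unadjusted p under 0.05, and their median log2 fold change was -3.26. The 11 epithelial genes summed to 576 to 951 CPM in endocardial and 735 to 1358 CPM in endothelial libraries. Of these 2 were called lower, and 7 were at an unadjusted p under 0.05. Krt8, named after its values were seen, gave a large part of that sum, at a mean of 429 CPM in endocardial and 425 CPM in endothelial libraries. Krt8 was not called, and the 95% interval of its log2 fold change was wide, at -0.77 to 0.80. Of 7 tested neural genes 4 were called lower (sums of 187 to 302 CPM in endocardial and 264 to 381 CPM in endothelial libraries). Of 10 tested blood and megakaryocyte genes 1 was called higher (sums of 604 to 1653 CPM in endocardial and 269.6 to 2045 CPM in endothelial libraries). Of 9 heart muscle genes and of 10 mesenchymal and mural genes 0 each were called, with 4 and 0 at an unadjusted p under 0.05. Their sums were 220.0 to 448 CPM in endocardial against 154 to 328 CPM in endothelial libraries for heart muscle, and 5139 to 8160 CPM in endocardial against 3738 to 23741 CPM in endothelial libraries for mesenchymal and mural genes. Their part in the differences below was not tested. In sorted bulk samples fewer cells of a type and less RNA per cell cannot be told apart.

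Cdh5 (GRCm38 chromosome 8, 104101625 to 104144511, plus strand) separated the groups widely. It had 157, 123, 119 and 127 CPM in endocardial libraries A, C, E and G, against 17.1, 16.4, 14.5 and 16.3 CPM in endothelial libraries B, D, F and H. These rest on 1020 to 1218 counts per endocardial and 112 to 192 per endothelial library. Every endocardial library lay above every endothelial one, with A the highest of the endocardial and B of the endothelial libraries. The mean was 132 ± 17.3 CPM in endocardial and 16.1 ± 1.11 CPM in endothelial libraries (SD, n = 4 each). The log2 fold change was 3.04 (SE 0.13, 95% interval 2.76 to 3.31, adjusted p = 3.96e-06 by edgeR's quasi-likelihood test), and Cdh5 had the smallest p of the 13817 tested genes. Its spread over the endothelial libraries was small, at a coefficient of variation of 6.91%. The summed endothelial markers of the same libraries ran from 395 CPM in F to 872 CPM in H. Much of that range lay in Tek (49.5 CPM in F and 334 CPM in H) and Kdr (129 and 332 CPM), which were named after their values were seen. The remaining markers were mixed. Ecscr, also named after its values were seen, rose from 8.55 CPM in F to 17.1 CPM in H. Tie1 had 23.8 CPM in F and 21.9 CPM in H, and Erg 4.49 and 4.07 CPM.

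Ptprb (chromosome 10, 116275523 to 116389535, plus strand) had the largest log2 fold change of the 10 genes. Its levels were 25.3, 26.5, 30.8 and 34.8 CPM in A, C, E and G, against 3.66, 2.92, 3.13 and 2.87 CPM in B, D, F and H. The endothelial values rest on 20 to 41 counts per library. No library of one group reached the range of the other. This was a log2 fold change of 3.21 (SE 0.17, 95% interval 2.83 to 3.59, adjusted p = 1.68e-05 by edgeR), rank 3 by p of all tested genes. Cdh5 and Ptprb both exceeded all 18 endothelial markers tested in the estimate of their log2 fold change. Their intervals overlapped those of markers such as Erg (95% interval 2.45 to 3.19) and Nos3 (2.39 to 3.16), so a difference from these is not shown.

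Esam (chromosome 9, 37528078 to 37538319, plus strand) varied little within either group. It stood at 51.8, 50.6, 46.8 and 47.0 CPM in A, C, E and G, against 8.38, 9.64, 9.28 and 9.09 CPM in B, D, F and H. The coefficient of variation was 5.12% over endocardial and 5.81% over endothelial libraries. All 4 endocardial libraries lay above all 4 endothelial ones. The log2 fold change of Esam was 2.43 (SE 0.11, 95% interval 2.19 to 2.67, adjusted p = 4.5e-06 by edgeR), the second smallest p of all tested genes.

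Pecam1 (chromosome 11, 106654217 to 106750628, minus strand) was abundant in both groups and differed less. Its values were 164, 152, 156 and 154 CPM in A, C, E and G, against 75.7, 85.4, 108.7 and 84.4 CPM in B, D, F and H. The groups did not overlap, and library F, with the most of the pluripotency genes, had the highest endothelial value. Its log2 fold change was 0.82 (SE 0.12, 95% interval 0.56 to 1.09, adjusted p = 0.0069 by edgeR). Of the 18 endothelial markers, 1 had a smaller log2 fold change than Pecam1, the angiopoietin receptor gene Tek at 0.15, which was named after its value was seen.

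Cldn5 (chromosome 16, 18776847 to 18778262, plus strand, a gene of 1 exon) was low in all libraries and varied most among the called genes. It had 14.7, 9.0, 15.1 and 5.49 CPM in A, C, E and G (114, 86, 140 and 44 counts), against 2.85, 3.8, 4.28 and 2.03 CPM in B, D, F and H (17 to 41 counts). The lowest endocardial library, G, lay above the highest endothelial library, F. For Cldn5 the log2 fold change was 1.77 (SE 0.37, 95% interval 0.96 to 2.58, adjusted p = 0.0347 by edgeR). This call was lost without A, B, C, D, E or H (adjusted p = 0.0612 to 0.111) and was kept without F or G, and without G the log2 fold change was 2.0. Over those 8 fits and the 6 other alternatives the adjusted p ran from 0.000351 to 0.111, and Cldn5 was called in 8 of the 14.

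**Figure D2:**
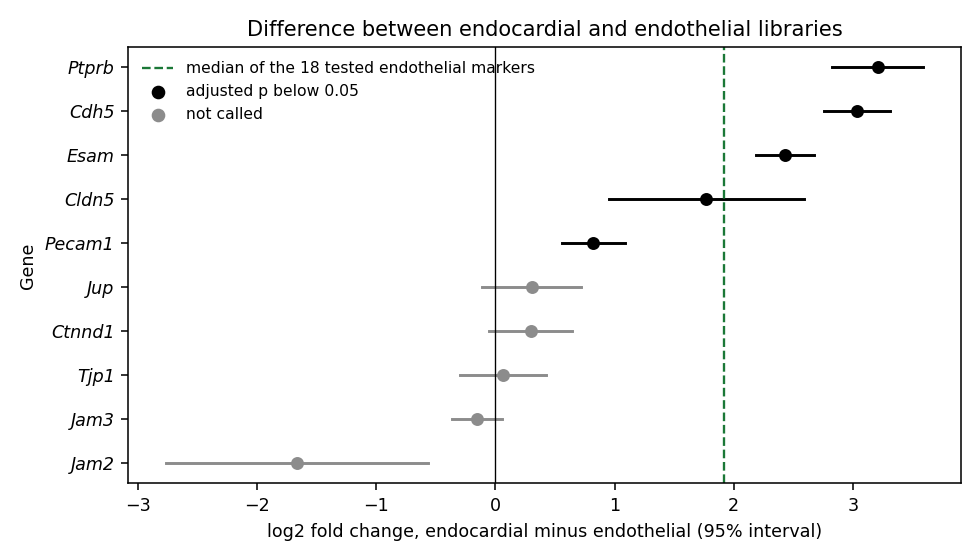
Log2 fold change of each junction gene, endocardial minus endothelial, with its 95% interval from the fit across all genes; black points have an adjusted p below 0.05 and grey points are not called. Ptprb, Cdh5 and Esam lie right of the dashed median of the 18 tested endothelial markers (1.92), Pecam1 left of it, and the interval of Cldn5 spans it.

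Of the immunoglobulin-domain genes Jam2 and Jam3, whose products bind each other, neither was called. Jam2 (chromosome 16, 84774123 to 84825928, plus strand) was at 4.26, 4.29, 6.99 and 2.87 CPM in A, C, E and G, against 7.49, 13.3, 30.6 and 7.17 CPM in B, D, F and H. All endocardial values lay below all endothelial ones, E by a narrow margin, and F stood at more than any other library. The log2 fold change was -1.66 (SE 0.49, 95% interval -2.76 to -0.56), with an adjusted p of 0.122 by edgeR. DESeq2 called it lower (adjusted p = 0.014), as did limma with voom weights (0.0366), and without F the log2 fold change was -1.02 (adjusted p = 0.210, edgeR). Over the 14 alternatives the adjusted p ran from 0.014 to 0.278.

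Jam2 is given here beside the pluripotency genes of the same libraries. Summed pluripotency levels were 21.4, 25.7, 133 and 22.6 CPM in A, C, E and G, against 136, 207, 1013 and 230 CPM in B, D, F and H. The endocardial library with most of both was E, and the endothelial one was F. Library H did not follow this order: it had the second highest endothelial pluripotency sum, 230 CPM, and the lowest endothelial level of Jam2, 7.17 CPM. The part of the pluripotency genes' cells in the level of Jam2 was not tested.

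**Figure D3:**
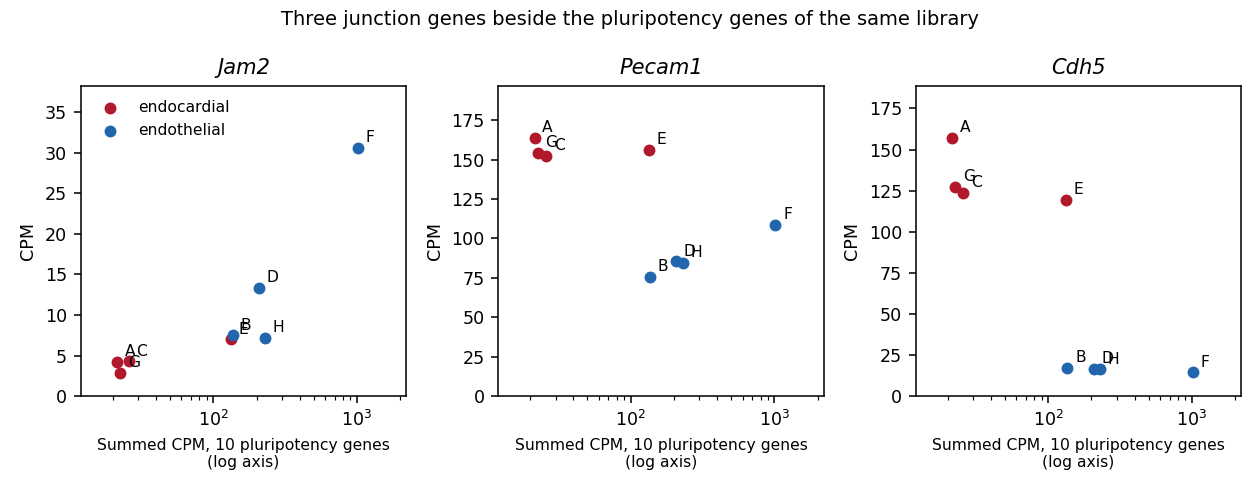
CPM of Jam2, Pecam1 and Cdh5 (linear axes) against the summed CPM of 10 pluripotency genes (log axis), each point a library with its letter, endocardial in red and endothelial in blue. Jam2 is highest in library F, which has the highest pluripotency sum (1013 CPM), and is lowest among the endothelial libraries in H, which has a sum of 230 CPM.

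Jam3 (chromosome 9, 27097384 to 27155421, minus strand) was nearly level. It had 76.6, 77.6, 66.6 and 71.9 CPM in A, C, E and G, against 82.7, 85.9, 77.8 and 78.7 CPM in B, D, F and H. The groups lay just apart, at 77.6 CPM in C and 77.8 CPM in F. Jam3 had a log2 fold change of -0.15 (SE 0.093, 95% interval -0.36 to 0.056, adjusted p = 0.53 by edgeR). Exon sequence of Jam3 overlaps Gm48796 on the other strand, and whether the counting used strand is not stated. In all, 7 of the 10 genes had groups that did not overlap, 5 higher and 2 lower, where 9.76% of all tested genes did (4.42% higher and 5.33% lower).

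None of the 3 genes for cytoplasmic partners was called. Ctnnd1, for p120-catenin, which keeps cadherins at the cell surface (chromosome 2, 84600071 to 84650765, minus strand), had 359, 400.1, 395 and 422 CPM in A, C, E and G, against 332, 332, 230.3 and 387 CPM in B, D, F and H. Library F was lowest, and H lay within the endocardial range. The log2 fold change was 0.30 (SE 0.16, 95% interval -0.051 to 0.65, adjusted p = 0.44 by edgeR), and 0.15 without F. Exon sequence of Ctnnd1 overlaps Gm28635 on the same strand, so its estimate is uncertain to that extent.

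Jup, for plakoglobin, a catenin of adherens junctions and desmosomes (chromosome 11, 100368958 to 100397763, minus strand), followed Ctnnd1 closely. It was at 86.6, 93.3, 102 and 108 CPM in A, C, E and G, against 90.5, 74.6, 50.9 and 99.6 CPM in B, D, F and H. The ranges overlapped, and F was again lowest. The log2 fold change was 0.31 (SE 0.19, 95% interval -0.11 to 0.72, adjusted p = 0.528 by edgeR), and without F it was 0.13. Of the 10 genes, Ctnnd1 and Jup were the pair with the smallest difference in pattern, a root mean square of 0.10 in gene-centred log2 CPM over the 8 libraries.

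Tjp1, for ZO-1 (chromosome 7, 65296165 to 65527781, minus strand), had 210.4, 251, 241 and 322 CPM in A, C, E and G, against 207, 269, 212 and 290.2 CPM in B, D, F and H. The groups overlapped almost completely, with G and H highest. The log2 fold change was 0.065 (SE 0.16, 95% interval -0.30 to 0.43, adjusted p = 0.912 by edgeR), which bounds the difference at 1.35-fold upward. Its sign changed with voom weights and without F or G.

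Levels can be set against each other per length, here as CPM per kb of merged exons. Among endocardial libraries the order was Ctnnd1 (53.8 ± 3.57 CPM per kb, SD, n = 4), Tjp1 (32.8 ± 6.04), Cdh5 (31.4 ± 4.11), Pecam1 (25.2 ± 0.826), Jam3 (22.9 ± 1.57), Esam (17.1 ± 0.875), Jup (15.2 ± 1.48), Cldn5 (7.81 ± 3.28), Ptprb (2.20 ± 0.325) and Jam2 (0.761 ± 0.285). Of neighbours in this order, Tjp1 and Cdh5 overlapped between libraries, as did Esam and Jup. Among endothelial libraries it was Ctnnd1 (43.8 ± 8.92 CPM per kb), Tjp1 (31.3 ± 5.29), Jam3 (25.4 ± 1.16), Pecam1 (14.2 ± 2.27), Jup (12.3 ± 3.32), Cdh5 (3.82 ± 0.264), Esam (3.17 ± 0.184), Jam2 (2.42 ± 1.82), Cldn5 (2.29 ± 0.705) and Ptprb (0.236 ± 0.0269). There, overlaps joined Ctnnd1 to Tjp1, Tjp1 to Jam3, Pecam1 to Jup, Esam to Jam2 and Jam2 to Cldn5. Cdh5 thus had rank 3 in the endocardial and rank 6 in the endothelial order. With the longest transcript as the length, Cdh5 had rank 5 in endocardial and rank 7 in endothelial libraries, Pecam1 rank 2 and rank 4, and Jam3 rank 3 and rank 2.

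Ratios of 2 genes within a library do not depend on how libraries are scaled. A two-sided exact permutation test over the 70 assignments of the libraries was run on 9 ratios, of which 6 had an adjusted p of 0.0429 (Benjamini-Hochberg over the 9) and an unadjusted exact p of 0.0286, the smallest that 4 against 4 libraries allow. Each of these 6 ratios was higher in all 4 endocardial libraries than in any endothelial one. All but Esam to Pecam1 have Cdh5 as numerator, so the 6 are not independent results. The pairs were chosen with earlier results known, and Cdh5 and Esam by themselves already separated the groups. These p-values therefore add no separate support, and the ratios are given as a description.

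Cdh5 rose relative to its catenins and to Pecam1. Counts of Cdh5 per count of Ctnnd1 were 0.438, 0.308, 0.303 and 0.302 in A, C, E and G, against 0.0517, 0.0494, 0.0632 and 0.0422 in B, D, F and H. The mean log2 ratio was higher by 2.71 for Cdh5 to Ctnnd1, by 2.68 for Cdh5 to Jup and by 2.19 for Cdh5 to Pecam1. Esam also rose relative to Pecam1, at 0.316, 0.333, 0.300 and 0.305 counts per count in A, C, E and G against 0.111, 0.114, 0.0859 and 0.108 in B, D, F and H, a log2 difference of 1.59.

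The proportion of Ptprb to Cdh5 was not called different. Counts of Ptprb per count of Cdh5 were 0.161, 0.215, 0.258 and 0.274 in A, C, E and G, against 0.216, 0.182, 0.219 and 0.179 in B, D, F and H. The ranges overlapped, and the log2 difference was 0.17 (two-sided exact permutation p = 0.4). The log2 differences of Cldn5 to Tjp1, 1.63, and of Jam2 to Jam3, -1.31, had exact permutation p-values of 0.0571 and 0.0857 and overlapping groups. Without F the difference of Jam2 to Jam3 was -0.85.

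**Figure D4:**
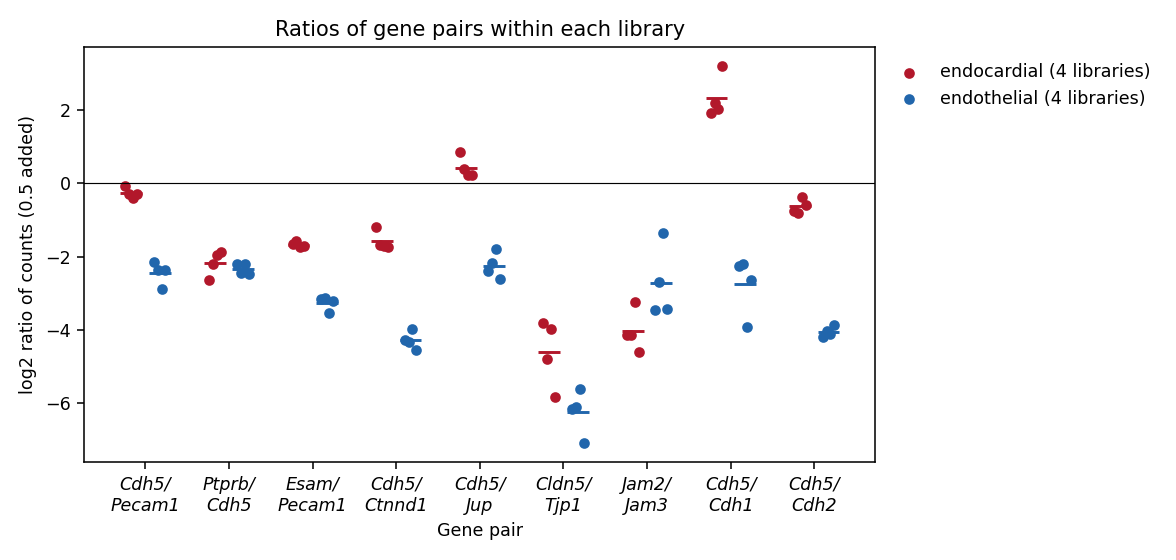
Log2 ratio of counts of 9 gene pairs within each library (0.5 added to each count), endocardial in red on the left and endothelial in blue on the right of each pair, with bars at the means of 4 libraries. The groups lie apart for Cdh5 over Pecam1, Ctnnd1, Jup, Cdh1 and Cdh2 and for Esam over Pecam1, and overlap for Ptprb over Cdh5, Cldn5 over Tjp1 and Jam2 over Jam3.

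Cdh5 was set beside the classical cadherin genes Cdh1, of epithelium and pluripotent cells, and Cdh2, of mesenchymal, neural and muscle cells, which the sorted cells could also use. Cdh1 was called lower (log2 fold change -2.12, SE 0.41, adjusted p = 0.031 by edgeR) and Cdh2 was not (log2 fold change -0.39, SE 0.17, adjusted p = 0.323). The call of Cdh1 was lost without A, C, E, G or H (adjusted p = 0.0526 to 0.100), and over the 14 alternatives Cdh1 was called in 8. Per kb, Cdh5 made up 47.1, 47.4, 52.8 and 53.1% of the sum of the 3 genes in A, C, E and G, against 6.63, 7.22, 4.12 and 6.95% in B, D, F and H. Cdh1 made up 9.47 ± 2.97% in endocardial and 39.5 ± 13.3% in endothelial libraries (SD, n = 4 each), and Cdh2 40.4 ± 3.41% and 54.2 ± 12%. These shares depend on the length used. Cdh2 has 8.066 kb of merged exons but a longest transcript of 4.843 kb, while Cdh5 has 4.203 and 3.995 kb. Shares by longest transcript were not computed, so which of Cdh5 and Cdh2 was larger in endocardial libraries is not settled. The log2 ratio of Cdh5 to Cdh1 differed by 5.10 and that of Cdh5 to Cdh2 by 3.43, both among the 6 ratios above. Cdh1 was highest in F, at 223 CPM, where the pluripotency genes were highest too.

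Within the JAM family, per kb, Esam made up 24.4 ± 1.70% of the sum of Esam, F11r, Jam2 and Jam3 in endocardial and 5.76 ± 0.879% in endothelial libraries. F11r, which codes for JAM-A of epithelium, endothelium and platelets, made up 41.9 ± 4.66% and 44.0 ± 6.74%. Jam3 made up 32.6 ± 3.19% in endocardial and 46.2 ± 7.55% in endothelial libraries, and Jam2 1.08 ± 0.403% and 4.08 ± 2.37%. The shares of a family add to the whole, so a higher share of Esam lowers the others. They also depend on the length used. Jam3 has 3.2 kb of merged exons but a longest transcript of 1.942 kb, while F11r has 2.663 and 2.518 kb. Shares by longest transcript were not computed, so the order of F11r and Jam3 is not settled.

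**Figure D5:**
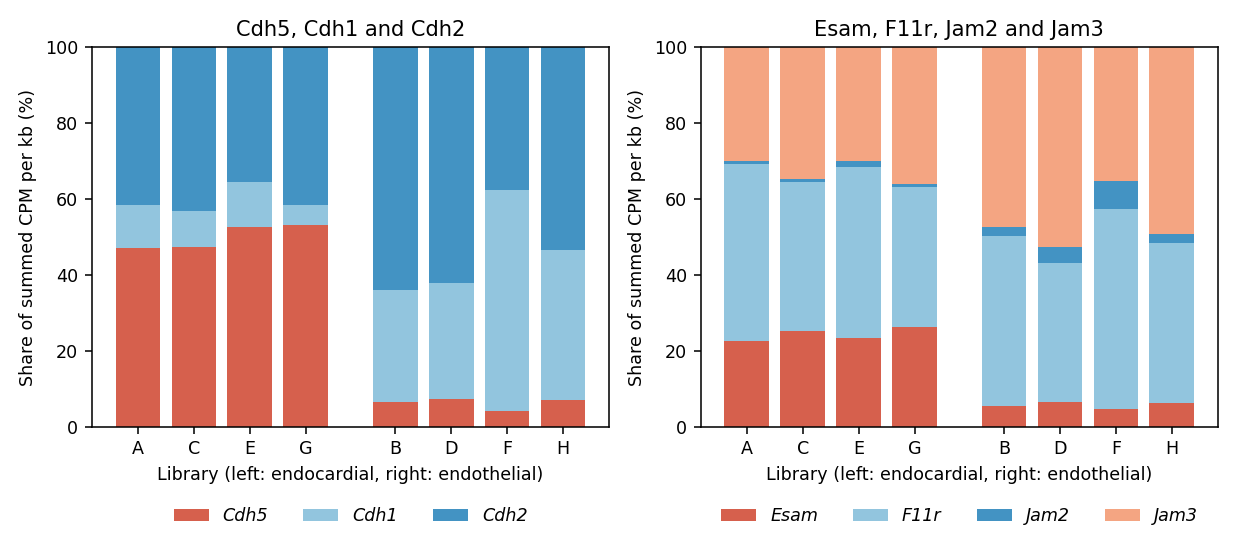
Share of each gene in the summed CPM per kb of 3 classical cadherins (left panel) and of 4 JAM family genes (right panel), 1 bar per library, with endocardial libraries A, C, E and G on the left of each panel and endothelial libraries B, D, F and H on the right. Cdh5 takes 47.1 to 53.1% of the cadherin sum in endocardial and 4.12 to 7.22% in endothelial libraries. Lengths are of merged exons, and the order of genes within a bar depends on that choice.

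Other junction genes are counted here by list, beside the 2.58% called over all tested genes. Of 14 adherens junction partners, edgeR called 0, with 1 at an unadjusted p under 0.05, while DESeq2 called 1 and limma 0. The list had a median log2 fold change of 0.042. Ctnnb1, for beta-catenin, had 729.9 ± 52.9 CPM in endocardial and 712 ± 52.3 CPM in endothelial libraries, a log2 fold change of 0.036 (SE 0.12), whose sign changed with voom weights and without E or F. Ctnna1, for the alpha-catenin that links the complex to actin, had one of 0.18 (SE 0.20). Arvcf, a relative of p120-catenin, had the smallest p of this list, at -0.80 (SE 0.21, adjusted p = 0.0848 by edgeR).

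Of 21 tested tight junction scaffolds and relatives of occludin (23 listed), 2 were called lower and 0 higher, with a median log2 fold change of -0.065. They were Prkcz, for the polarity kinase atypical PKC zeta (-1.09, SE 0.20, adjusted p = 0.0203 by edgeR), and Cgn, for cingulin (-1.47, SE 0.30, adjusted p = 0.0351). Cgn had 15.2, 15, 16.1 and 12.5 CPM in A, C, E and G, against 26.3, 29.6, 71.3 and 35.3 CPM in B, D, F and H, with F highest. The count of 2 became 0 without A, D, E or G, 1 without C or H, and 3 without B. Tjp3, for ZO-3, had -2.13 (SE 0.58, adjusted p = 0.0955) and Ocln, for occludin, -0.87 (SE 0.31, adjusted p = 0.21). F11r was at 0.25 (SE 0.22, adjusted p = 0.687).

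Of 7 tested desmosome genes (10 listed), 0 were called by edgeR or limma and 1 by DESeq2, with 3 at an unadjusted p under 0.05 and a median log2 fold change of -0.51. Dsp, for desmoplakin, had -0.20 (SE 0.25), and Dsg2, for a desmoglein, -0.66 (SE 0.16, adjusted p = 0.0631 by edgeR). Of 10 further adhesion genes of endothelial borders 1 was called, with a median of -0.075. This was Icam2, for an endothelial and leukocyte adhesion protein, at 12.7 ± 2.21 CPM in endocardial and 2.13 ± 0.257 CPM in endothelial libraries (SD, n = 4 each), with a log2 fold change of 2.57, an SE of 0.22 and an adjusted p of 0.00024 by edgeR. Nectin3 of the same list had -0.34 (SE 0.11, adjusted p = 0.146).

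The genes whose pattern over the 8 libraries was most like that of a member were sought among 10918 other tested genes with a mean of at least 5 CPM, by the root mean square difference of gene-centred log2 CPM. For Cdh5 they were Tie1 (0.23), Nos3 (0.28) and Abi3 (0.28), and for Ptprb Erg (0.27), Gad2 (0.28) and Dusp2 (0.30). Esam was nearest to Rasip1 (0.18), Icam2 (0.18) and Scarf1 (0.21). Cldn5 was nearest to Sema3g (0.25), Gimap6 (0.28) and Notch4 (0.29), and Pecam1 to Lrrc8b (0.095), Ptprm (0.11) and Ddah1 (0.15). The nearest genes to Jam2 were Clip4 (0.18), Dtna (0.22) and Kif21a (0.22). Jam3 was nearest to Ctr9 (0.048), Tjp1 to Fut10 (0.049), Ctnnd1 to Shc1 (0.057) and Jup to Nab1 (0.041).

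Promoter sequence was at hand for 4 of the 10 genes, Cldn5, Jup, Tjp1 and Ctnnd1, from RefSeq on build GRCm38.p6. The 250 bases before the start of Cldn5, the called gene among them, and of Jup, which was not called, are given 5′ to 3′ on the gene's strand so that they can be set side by side. The Cldn5 window is chr16:18776597-18776846 on the plus strand and the Jup window chr11:100397791-100398040 on the minus strand. Capitals mark each GGGCGG, the GC box bound by SP and KLF factors, on either strand.
Cldn5: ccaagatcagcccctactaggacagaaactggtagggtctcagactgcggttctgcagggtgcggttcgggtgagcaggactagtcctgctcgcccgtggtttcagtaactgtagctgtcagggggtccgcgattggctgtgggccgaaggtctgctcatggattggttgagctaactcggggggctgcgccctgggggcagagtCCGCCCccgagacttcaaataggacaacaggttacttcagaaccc
Jup: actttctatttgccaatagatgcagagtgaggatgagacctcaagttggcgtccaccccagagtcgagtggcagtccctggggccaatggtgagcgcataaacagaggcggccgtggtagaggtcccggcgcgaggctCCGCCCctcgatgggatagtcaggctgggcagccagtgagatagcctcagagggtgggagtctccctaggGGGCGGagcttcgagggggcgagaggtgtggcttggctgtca
Cldn5 held 1 such box, beginning 45 bases before the start, and Jup held 2, at 112 and 42 bases before it. Of 32851 promoter windows of the same length, 32.7% held at least 1. Neither window held the ETS core GGAAG, which 64.1% of windows hold, the longer form CCGGAAG that contains it (6.91%), the GATA letters AGATAA (9.99%), the Sox letters ATTGTT (9.42%) or an E-box CANNTG (66.2%). The Tjp1 window held 2 GC boxes and 1 ETS core. Each window of Ctnnd1 held 2 ETS cores. The windows of Cldn5 and Jup had a GC content of 59.6% and 62%, against a median of 52.4% over all windows.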

How the data were processed

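The authors deposited estimated counts per gene symbol for 8 libraries, made with a total RNA column kit and a stranded mRNA kit per the labels' protocols. Salmon, DESeq2 and build mm10 are named per the submitters' processing notes, and versions, transcript set and filters are not stated there. The deposited estimated counts are whole numbers with differing totals, and rounding them again changed nothing. Genes passing edgeR's filterByExpr (minimum count 10, minimum total 15) were tested by the robust quasi-likelihood F-test of edgeR 4.0.16 (R 4.3.3) after TMM scaling, over all 8 libraries, endocardial minus endothelial, with Benjamini-Hochberg adjustment over 13817 genes. An SE is the absolute log2 fold change over the square root of F, and intervals use the fit's degrees of freedom. CPM are counts per 1000000 of the TMM-scaled total, with log2 CPM at a prior count of 2. Ratios were tested with scipy 1.17.1. Alternatives used limma 3.58.1, DESeq2 1.42.0 and sva 3.50.0. The tests were checked on simulated data.

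Coordinates and exon lengths are from GENCODE M21 (GRCm38, the assembly of mm10), 1-based. It holds 32697 of the 34536 symbols and all 10 members. The table had no sample columns beyond these libraries. The members, lists, ratios and alternatives were chosen with earlier results of these data known. All 10 members are described. From each other list at most the 4 genes with the smallest p are named, plus Ctnnb1, Ctnna1, Ocln, F11r, Dsp, Cdh1 and Cdh2, and a further gene that is not reported here. Other genes named outside this rule are said to be so. For each member 3 genes of like pattern were sought. No 2 libraries share a letter, and the labels do not say whether an endocardial and an endothelial library came from the same culture. No block was fitted, and the tests treat the libraries as unpaired; whether calls would differ in a paired fit was not tested. Per library, the counts were 17 to 140 for Cldn5 and 23 to 293 for Jam2.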

Additional observations from a re-analysis of the deposited data

How the results depend on the processing

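Cdh5, Ptprb, Esam and Pecam1 were called higher under all 14 alternatives (DESeq2, limma with voom weights, RLE scaling, no filter, a stricter filter, 1 surrogate variable and leaving out each library), with log2 fold changes of 2.92 to 3.08, 3.13 to 3.3, 2.39 to 2.46 and 0.76 to 0.92. Cldn5 ran from 1.58 to 2.0 when a library was left out, and Jam2 was called at -1.66 by DESeq2 and -1.40 by voom. Tjp1 turned to -0.038 with voom and ran from -0.052 to 0.15 without single libraries. Ctnnb1 turned to -0.00056 with voom and ran from -0.030 to 0.066, and Dsp ran from -0.43 to 0.017. The number of all tested genes called was 356, against 860 by DESeq2, 975 by voom and 135 to 457 when a library was left out. DESeq2 called 1 adherens junction partner, 1 desmosome gene and 2 border adhesion genes, and voom called 2 border adhesion genes. The desmosome count was 1 without a filter and with 1 surrogate variable. The tight junction count ran from 0 to 3 when a library was left out. With the longest transcript as the length, endocardial ranks became 2 for Pecam1, 3 for Jam3, 4 for Tjp1, 5 for Cdh5, 6 for Jup and 7 for Esam, and endothelial ranks 2 for Jam3, 3 for Tjp1, 6 for Esam and 7 for Cdh5. The cause of these changes was not tested. Adding 2 counts in place of 0.5 changed no ratio's call, and no call was made without a library, where the smallest exact p is above 0.05. Then the log2 difference ran from 4.71 to 5.29 for Cdh5 to Cdh1, 3.35 to 3.5 for Cdh5 to Cdh2, 2.57 to 2.81 for Cdh5 to Ctnnd1, 2.54 to 2.83 for Cdh5 to Jup, 2.04 to 2.29 for Cdh5 to Pecam1, 1.5 to 1.63 for Esam to Pecam1, 1.35 to 2.05 for Cldn5 to Tjp1, 0.067 to 0.32 for Ptprb to Cdh5 and -1.57 to -0.85 for Jam2 to Jam3.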

Other observations

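The epithelial genes listed beside the junction genes did not move as one. Cdh1 and Epcam, an adhesion protein of epithelia, were called lower (Epcam at -2.20 on the log2 scale with an SE of 0.48 and an adjusted p of 0.0465 by edgeR), and the claudin genes Cldn4 and Cldn7, at -2.32 and -2.34, had adjusted p-values of 0.0593 and 0.056. Epcam was highest in F, at 71.6 CPM, against 14.8, 20.7 and 34.9 CPM in B, D and H. Whether the call of Epcam holds under the alternatives was not examined. The keratin genes Krt8, Krt18 and Krt19 lay at 0.015, 0.12 and -0.20 and were not called. Krt8 was at 429 ± 96.1 CPM in endocardial and 425 ± 209.9 CPM in endothelial libraries (SD, n = 4 each), and its lowest value, 174 CPM, was in library F, where Cdh1 was highest. These genes were named after their values were seen.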
